A study of Rattus norvegicus with 18 samples.

Results

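The 9 rat genes Pgd, Taldo1, Tkt, Me1, Txnrd1, Srxn1, Akr1b8, Cbr1 and Osgin1 were followed in lung after 13 weeks of cigarette smoke. They were chosen by name as genes of NADPH supply and carbonyl reduction, from 13811 gene symbols on the arrays. Every probe set annotated with 1 of these symbols alone was taken, which gave 14 of 31042 probe sets and covered all 9 genes. Affymetrix array type A held 12 of the 14 and type B held 2, both for Srxn1. A further 3 probe sets carry Pgd together with other symbols and were not used. In 12 of the 14 the signal was bright enough to be tested, that is, at or above the 40th percentile of its type (183.8 on type A, 238.7 on type B) in at least 3 of 9 arrays. Of the rest, 1 Tkt probe set (signals 5.9 to 55.7) and 1 of the Srxn1 probe sets of type B (11.1 to 35.0) were too dim and are not described further.

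Male Sprague-Dawley rats breathed mainstream smoke of a standard reference cigarette nose-only, or a sham exposure, in daily sessions of 2 h, 5 days a week. The groups were smoke at 600 µg of total particulate matter per litre of air, smoke at 300 µg/l, and sham, and each held lungs collected at recovery times of 2, 6 and 20 h after the final session. Each of the 9 conditions had 1 array of each type and no replicate, so the 3 recovery times of an exposure stood in as its replicates (n = 3 arrays), with time in the model. How many animals an array holds, and whether RNA was pooled, is not stated in the labels. Each p-value thus reflects the scatter among these arrays alone, which may be technical, and their number limits the precision. In the comparisons of exposures and of times, that scatter also holds any difference of the smoke effect between recovery times. This widens the SE of a gene whose smoke effect differs by time, so a missed threshold there does not show an absent effect. Values are signals on a linear scale, set by the authors to the same trimmed mean on every array, and log2 changes are those of signal + 50.

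NADPH is the reductant that cells spend on thioredoxin, glutathione and carbonyl reductases. It is made by the oxidative arm of the pentose phosphate pathway and by malic enzyme, among others, while transaldolase and transketolase return pentose phosphates to glycolytic intermediates. Smoke carries reactive aldehydes, quinones and oxidants, and many genes of this supply and of its consumers are known targets of NRF2, a transcription factor that binds antioxidant response elements. Of the 9 genes, Pgd, Taldo1, Tkt and Me1 belong to the supply and its pathway, Txnrd1 and Srxn1 to the thioredoxin and peroxiredoxin system, and Akr1b8 and Cbr1 to carbonyl reduction. Osgin1, an oxidative stress-induced growth inhibitor, belongs to none of these by its known function.

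The core of the antioxidant response element, TGACNNNGC, was searched on both strands in RefSeq promoter windows (GRCr8, 250 bases before to 50 after a transcription start). All 9 genes matched, with 10 windows since Txnrd1 has 2 starts. The core stood in 2 of the 10 windows (20.0%), those of Me1 and of 1 Txnrd1 start, against 12.1% of 33469 rat windows. TGANTCA, the core that AP-1 and related factors bind (C or G in its middle) widened to any middle base, was searched after the windows had been seen. It stood in 2 of the 10 windows, at 1 position in Me1 and at 2 in Srxn1, against 7.33% of all windows. In Me1 both motifs start at base 84 of the window and overlap. A match is only a match of letters, and no binding was measured. The 3 windows with a match are shown because they are the members' windows that hold one of these motifs, 5′ to 3′ on the gene's strand, with the matched bases in capitals. They are Me1 at chr8:96540195-96540494 (minus strand), the matching Txnrd1 start at chr7:22755855-22756154 (minus strand, core on the opposite strand at base 173) and Srxn1 at chr3:161064562-161064861 (plus strand, TGANTCA at bases 189 and 246).
Me1: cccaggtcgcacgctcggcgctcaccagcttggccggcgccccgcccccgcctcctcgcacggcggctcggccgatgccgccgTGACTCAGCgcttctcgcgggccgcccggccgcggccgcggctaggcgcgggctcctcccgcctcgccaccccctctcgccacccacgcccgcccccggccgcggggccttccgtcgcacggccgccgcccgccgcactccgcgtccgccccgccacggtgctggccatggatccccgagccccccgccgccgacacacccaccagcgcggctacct
Txnrd1: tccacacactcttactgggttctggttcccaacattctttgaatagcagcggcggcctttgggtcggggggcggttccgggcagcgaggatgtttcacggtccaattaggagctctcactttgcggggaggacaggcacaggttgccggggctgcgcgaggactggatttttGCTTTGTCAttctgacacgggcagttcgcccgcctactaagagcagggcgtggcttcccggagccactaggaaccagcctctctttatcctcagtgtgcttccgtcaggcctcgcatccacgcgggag
Srxn1: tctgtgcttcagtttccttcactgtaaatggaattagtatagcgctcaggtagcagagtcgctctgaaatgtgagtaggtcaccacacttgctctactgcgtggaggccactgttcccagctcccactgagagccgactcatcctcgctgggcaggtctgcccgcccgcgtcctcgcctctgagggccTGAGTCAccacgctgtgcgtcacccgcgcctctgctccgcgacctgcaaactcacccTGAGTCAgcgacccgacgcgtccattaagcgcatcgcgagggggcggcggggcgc

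As a check of the tissue, surfactant and other alveolar type 2 genes (6 of 6 measured) summed to 69023.5 to 78663.9 at 600 µg/l, 69546.1 to 73541.7 at 300 µg/l and 65867.0 to 75535.3 in sham. In the labels of the 4 smoke samples at 20 h, 1 field reads sham, although their titles and sources give a smoke concentration. The type B arrays of sham and of 300 µg/l at 2 h were unusually alike. After the mean over arrays was subtracted, they correlated at r = 0.56 across probe sets, which are not independent. No further pair of type B arrays exceeded 0.103. Which array of the pair, if either, is at fault was not settled. Of the tested members this touches the type B probe set of Srxn1 alone. Among the related genes named below, Nadk, Akr1c14, Sesn2 and Maff were also read on type B, as were some cell type markers.

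Smoke at 600 µg/l was set against sham to see how far these genes differed after the higher smoke concentration. No probe set of the 9 genes passed limma's test at an adjusted p of 0.05, where 0.514% of all 19638 tested probe sets did and 2031 had an unadjusted p under 0.05. All 12 had a positive change, with a median log2 change of 0.31, against -0.01 over all tested probe sets, of which 48.2% were positive. Unadjusted p was under 0.05 with a positive change in 8 of the 12, those of Tkt, Srxn1 (type A), Osgin1, Pgd, Taldo1 and Akr1b8 and both of Txnrd1, against 5.25% of all. Osgin1 and the type A probe set of Srxn1 reached the brightness filter through smoke arrays, each being under it in 2 of 3 sham arrays. The genes were also picked with earlier results of these arrays known. These counts, and those of the later comparisons, are therefore a description.

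**Figure D1:**
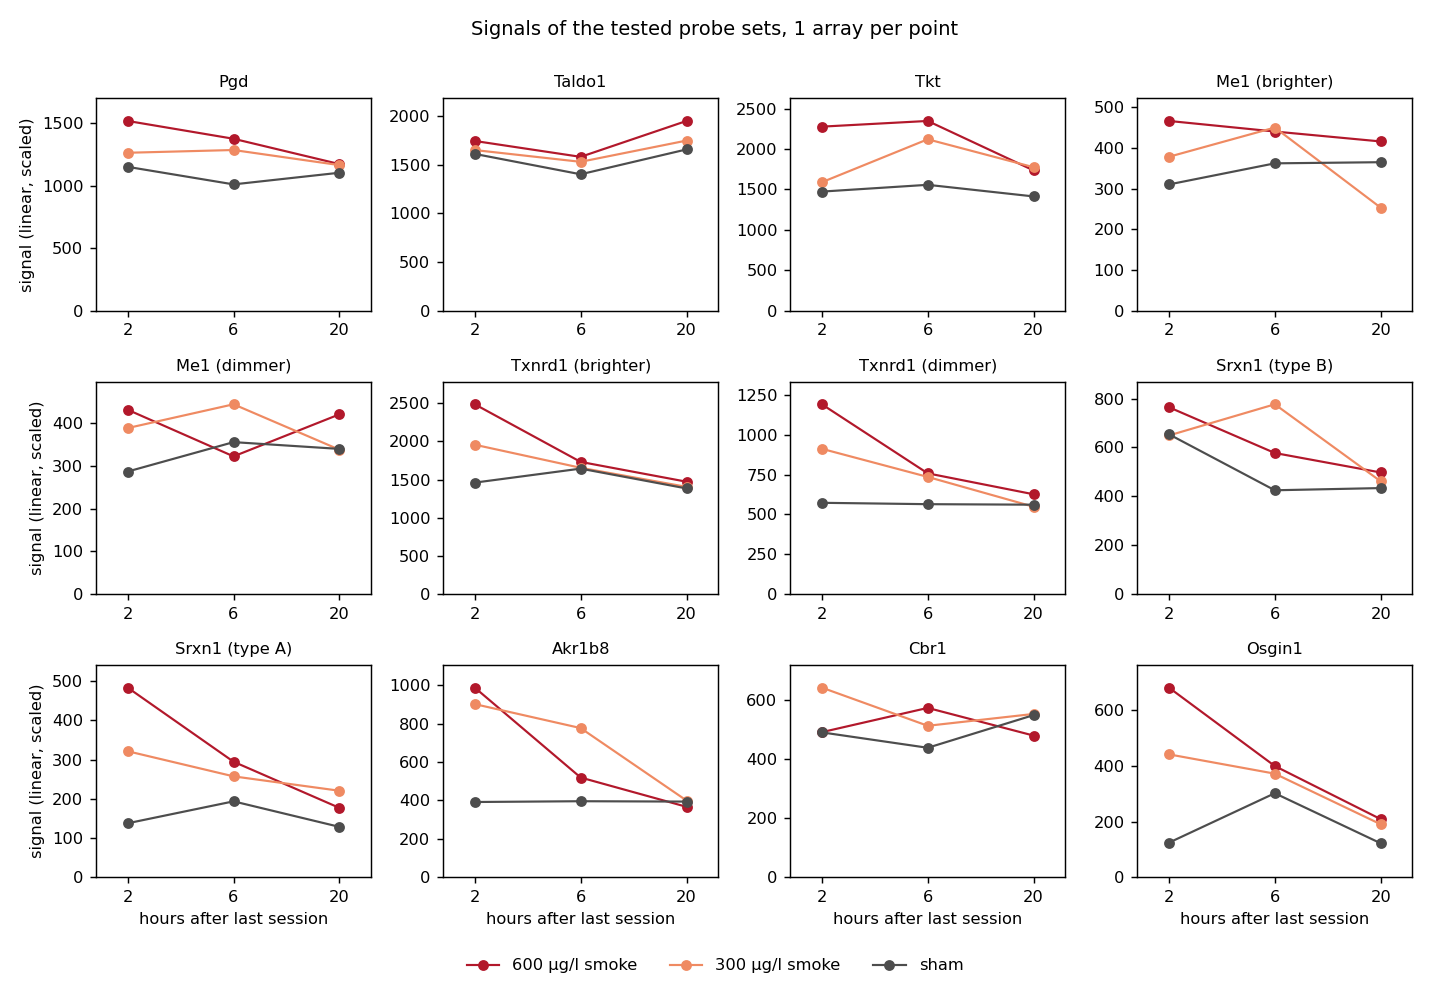
Signal (linear, scaled) of each tested probe set against hours after the last session, with 1 array per point, for 600 µg/l, 300 µg/l and sham. Akr1b8 read 986.8 and 901.0 in smoke at 2 h, against 391.6 in sham, and 366.6 and 399.3 at 20 h, against 393.8.

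Among the genes of NADPH supply, Tkt was farthest from sham relative to its error. Tkt encodes transketolase, which moves carbon units between sugar phosphates in the non-oxidative arm of the pathway. It read 2276.9, 2347.3 and 1735.0 at 600 µg/l, 1588.7, 2120.4 and 1774.7 at 300 µg/l and 1472.9, 1556.8 and 1413.1 in sham, at 2, 6 and 20 h. Every smoke array, of either concentration, lay above every sham array. Means were 2119.7 ± 335.0 at 600 µg/l, 1828 ± 270 at 300 µg/l and 1481 ± 72.2 in sham (SD, n = 3 each). At 600 µg/l the log2 change was 0.49 (SE 0.10, 95% interval 0.26 to 0.72, 1.41-fold), at an adjusted p = 0.0897 by limma. At 300 µg/l it was 0.29 (SE 0.10, adjusted p = 0.788 by limma).

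Pgd encodes phosphogluconate dehydrogenase, an NADPH-yielding step of the oxidative arm. Its signals were 1520.0, 1377.2 and 1174.2 at 600 µg/l, 1265.0, 1287.1 and 1165.9 at 300 µg/l and 1152.2, 1011.6 and 1105.0 in sham. Here too neither smoke group overlapped sham, but the lowest smoke array (1165.9) and the highest sham array (1152.2) were close. The log2 change was 0.30 at 600 µg/l (SE 0.09, 95% interval 0.09 to 0.50, adjusted p = 0.264 by limma) and 0.18 at 300 µg/l (SE 0.09, interval -0.03 to 0.38). By recovery time, the ratio of 600 µg/l to sham was 1.32 at 2 h, 1.36 at 6 h and 1.06 at 20 h.

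Taldo1 encodes transaldolase, the partner of transketolase in the non-oxidative arm. It read 1742.5, 1579.3 and 1948.1 at 600 µg/l, 1649.2, 1528.3 and 1746.5 at 300 µg/l and 1609.6, 1400.2 and 1655.7 in sham. The groups overlapped, although at each time the order was 600 µg/l, 300 µg/l and sham from high to low. Its log2 change was 0.17 at 600 µg/l (SE 0.07, 95% interval 0.01 to 0.33, adjusted p = 0.457 by limma) and 0.08 at 300 µg/l (SE 0.07).

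Me1 encodes cytosolic malic enzyme, which makes NADPH from malate. Its brighter probe set read 466.2, 440.2 and 415.8 at 600 µg/l, 378.1, 450.0 and 253.0 at 300 µg/l and 310.1, 362.0 and 364.8 in sham. The 600 µg/l arrays lay above all sham arrays, whereas the 300 µg/l arrays spanned them, with 253.0 at 20 h the lowest of the 9. Its log2 change was 0.31 (SE 0.15, 95% interval -0.01 to 0.64) at 600 µg/l and 0.03 (SE 0.15) at 300 µg/l. The dimmer Me1 probe set read 431.3, 322.1 and 420.6 at 600 µg/l, 388.4, 444.1 and 337.7 at 300 µg/l and 286.6, 355.5 and 339.6 in sham, with overlap of all groups, and stood at 0.22 (SE 0.14) at either concentration. At 6 h the 600 µg/l array was above sham in the first probe set (440.2 against 362.0) and below it in the other (322.1 against 355.5).

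Txnrd1 encodes cytosolic thioredoxin reductase, the selenoenzyme that passes electrons from NADPH to thioredoxin. Both of its probe sets were highest in smoke at 2 h. The brighter read 2486.7, 1731.3 and 1471.5 at 600 µg/l, 1956.5, 1654.0 and 1403.9 at 300 µg/l and 1459.5, 1643.1 and 1383.1 in sham. The dimmer read 1192.7, 758.4 and 626.7 at 600 µg/l, 912.8, 735.9 and 548.3 at 300 µg/l and 573.1, 564.5 and 561.3 in sham. In the dimmer the sham arrays were nearly level (566.3 ± 6.1, SD, n = 3), all 600 µg/l arrays lay above them, and 300 µg/l overlapped them at 20 h. Log2 changes at 600 µg/l were 0.30 (SE 0.12, adjusted p = 0.427) for the brighter and 0.51 (SE 0.14, 95% interval 0.19 to 0.83, adjusted p = 0.214) for the dimmer by limma. At 300 µg/l they were 0.15 (SE 0.12) and 0.32 (SE 0.14).

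Srxn1 encodes sulfiredoxin, which repairs over-oxidised peroxiredoxins, and its probe sets on the array types differed. On type A it read 483.6, 294.6 and 176.9 at 600 µg/l, 321.4, 257.3 and 220.6 at 300 µg/l and 137.7, 193.6 and 128.5 in sham. All 300 µg/l arrays lay above all sham arrays, and the 600 µg/l array at 20 h lay below the sham array at 6 h. The change on type A was 0.78 at 600 µg/l (SE 0.20, 95% interval 0.34 to 1.23, 1.72-fold, adjusted p = 0.165 by limma) and 0.64 at 300 µg/l (SE 0.20, adjusted p = 0.705 by limma). Since sham at 2 and 20 h lay under the brightness filter of 183.8, the size of this change is uncertain. On type B Srxn1 read 765.0, 577.4 and 497.6 at 600 µg/l, 649.2, 777.0 and 461.4 at 300 µg/l and 654.2, 424.7 and 433.7 in sham. There the sham array at 2 h read close to the 300 µg/l array that it resembled, and the groups overlapped. The type B change at 600 µg/l was 0.26 (SE 0.16, adjusted p = 0.631) with this sham array and 0.35 (adjusted p = 0.60) without it, by limma. At 300 µg/l it was 0.29 (SE 0.16).

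Akr1b8, an aldo-keto reductase that turns aldehydes into alcohols with NADPH, was the member with the least variable sham level. It read 986.8, 519.0 and 366.6 at 600 µg/l, 901.0, 776.2 and 399.3 at 300 µg/l and 391.6, 395.7 and 393.8 in sham. At 2 h the smoke arrays were 2.52 and 2.3 times sham at 600 and 300 µg/l, at 6 h 1.31 and 1.96 times, and at 20 h 0.931 and 1.01 times. Over the 3 times its log2 change was 0.50 at 600 µg/l (SE 0.22, 95% interval 0.02 to 0.98, adjusted p = 0.463) and 0.67 at 300 µg/l (SE 0.22, interval 0.19 to 1.15, adjusted p = 0.714) by limma. Every 300 µg/l array lay above every sham array, at 20 h by a few units only, and 600 µg/l lay below sham at 20 h.

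Cbr1 encodes carbonyl reductase, an NADPH-dependent enzyme for quinones and other carbonyls. It read 491.5, 573.7 and 479.9 at 600 µg/l, 642.4, 513.1 and 553.2 at 300 µg/l and 490.8, 438.6 and 549.3 in sham, and all groups overlapped. Its log2 change was 0.06 (SE 0.12, 95% interval -0.20 to 0.32) at 600 µg/l and 0.19 (SE 0.12, interval -0.07 to 0.45) at 300 µg/l. These intervals still allow changes as large as those of Pgd.

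Osgin1 encodes a growth inhibitor induced by oxidative stress, and had the highest fitted change of the members. It read 681.7, 399.9 and 208.9 at 600 µg/l, 441.8, 372.4 and 190.5 at 300 µg/l and 124.3, 302.1 and 122.1 in sham. Smoke lay above sham of the same time at all 3 times, 5.48 and 3.55 times at 2 h for 600 and 300 µg/l, but the sham array at 6 h was higher than both smoke arrays at 20 h. Its log2 change was 1.0 at 600 µg/l (SE 0.26, 95% interval 0.42 to 1.59, 2.01-fold, adjusted p = 0.188) and 0.75 at 300 µg/l (SE 0.26, adjusted p = 0.763) by limma. Single sham arrays moved this value. Without sham at 2 h the change at 600 µg/l was 0.55 (adjusted p = 0.257), and without sham at 6 h it was 1.29 (adjusted p = 0.140), by limma. Sham at 2 and 20 h lay under the brightness filter, so the ratios at those times are uncertain.

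**Figure D2:**
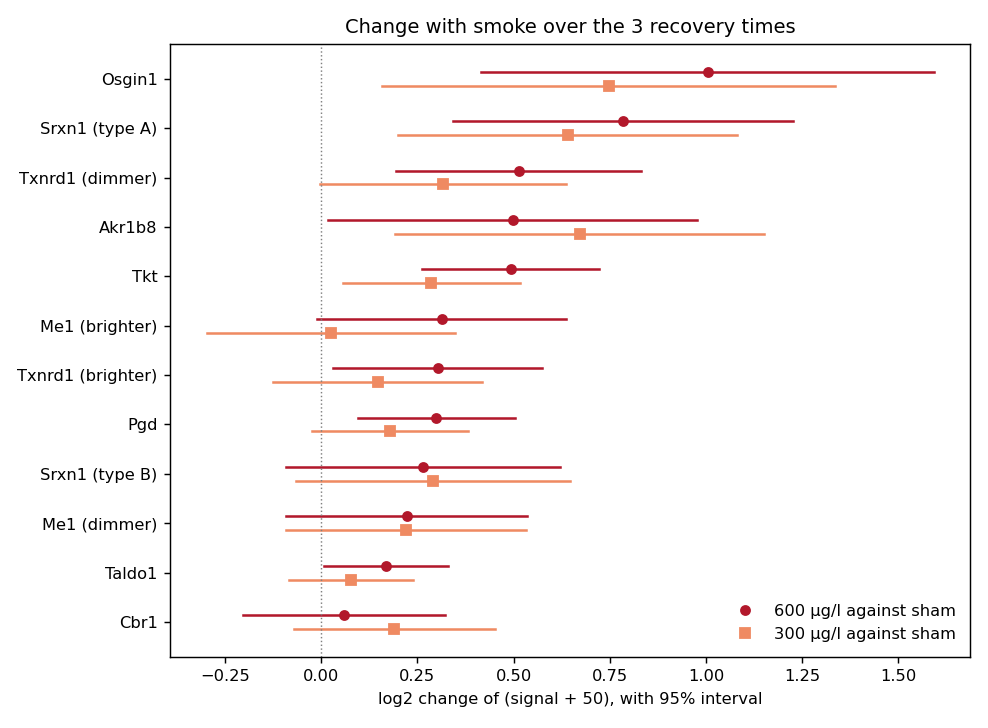
Log2 change of signal + 50 against sham for each tested probe set, over the 3 recovery times, at 600 µg/l (circles) and 300 µg/l (squares), with 95% intervals. The points run from 0.06 (Cbr1) to 1.0 (Osgin1) at 600 µg/l and from 0.03 (brighter Me1) to 0.75 (Osgin1) at 300 µg/l.

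At 300 µg/l the same comparison was made for the lower concentration, against the same 3 sham arrays, so its values are not independent of those at 600 µg/l. No member passed by limma at an adjusted p of 0.05, against 0.0458% of all probe sets, with 1085 at an unadjusted p under 0.05. All 12 probe sets again had a positive change, with a median of 0.25, against -0.002 over all. In 4 of them, those of Akr1b8, Osgin1, Srxn1 (type A) and Tkt, unadjusted p was under 0.05 with a positive change, against 2.86% of all. Every 300 µg/l array lay above every sham array for Akr1b8, Pgd, Srxn1 (type A) and Tkt (4 of 12, against 4.12% of all). At 600 µg/l the same held for Pgd, Tkt and the brighter Me1 and dimmer Txnrd1 probe sets, 4 of 12, against 6.98% of all.

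The higher and the lower concentration were then set against each other, to see whether the members followed dose. None passed by limma (0.0204% of all did, with 992 at an unadjusted p under 0.05), and none had an unadjusted p under 0.05 with a positive change, against 2.59% of all. The change at 600 over 300 µg/l was positive in 9 of 12 probe sets, with a median of 0.13, against 49.0% positive and a median of -0.003 over all tested probe sets. It was 0.21 for Tkt (95% interval -0.02 to 0.44), 0.29 for the brighter Me1 (-0.04 to 0.61), 0.26 for Osgin1 (-0.33 to 0.85) and 0.12 for Pgd (-0.08 to 0.32). For Akr1b8 it was -0.17 (-0.65 to 0.31) and for Cbr1 -0.13 (-0.39 to 0.13). All of these intervals include 0, and none is narrow enough to show that the concentrations gave the same level.

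Taking both smoke concentrations together against sham, Tkt stood at 0.39 (SE 0.09, adjusted p = 0.147), Srxn1 on type A at 0.71 (SE 0.17, adjusted p = 0.172) and Osgin1 at 0.88 (SE 0.23, adjusted p = 0.215) by limma. The dimmer Txnrd1 probe set stood at 0.41 (SE 0.12), Akr1b8 at 0.58 (SE 0.19) and Pgd at 0.24 (SE 0.08). None of the members passed, against 0.407% of all probe sets, with 1695 of them at an unadjusted p under 0.05. These 6 probe sets were the ones with an unadjusted p under 0.05 and a positive change, 6 of 12, against 4.56% of all.

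The smoke arrays were also set against the sham array of the same recovery time, with 1 array per condition. At 2 h, the smoke arrays of both concentrations were at least 1.25-fold above sham (signal + 50) for Akr1b8, Osgin1, Srxn1 (type A), the dimmer Me1 and both Txnrd1 probe sets, 6 of 12, against 3.08% of all. At 6 h the same held for Akr1b8, Pgd, Tkt, the dimmer Txnrd1 and both tested Srxn1 probe sets, 6 of 12, against 7.28% of all. At 20 h it held for Osgin1 and Srxn1 (type A), 2 of 12, against 4.17% of all. Both reached the brightness filter through smoke arrays, and their sham signals at 2 and 20 h lay under it. The counts at those times are thus a description only. The median difference of smoke (mean of both concentrations) from sham over the 12 probe sets was 0.42 at 2 h, 0.34 at 6 h and 0.10 at 20 h, against -0.01 at 2 h, -0.002 at 6 h and -0.009 at 20 h over all. It was positive in 12 of 12 at 2 h, 12 of 12 at 6 h and 9 of 12 at 20 h.

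**Figure D3:**
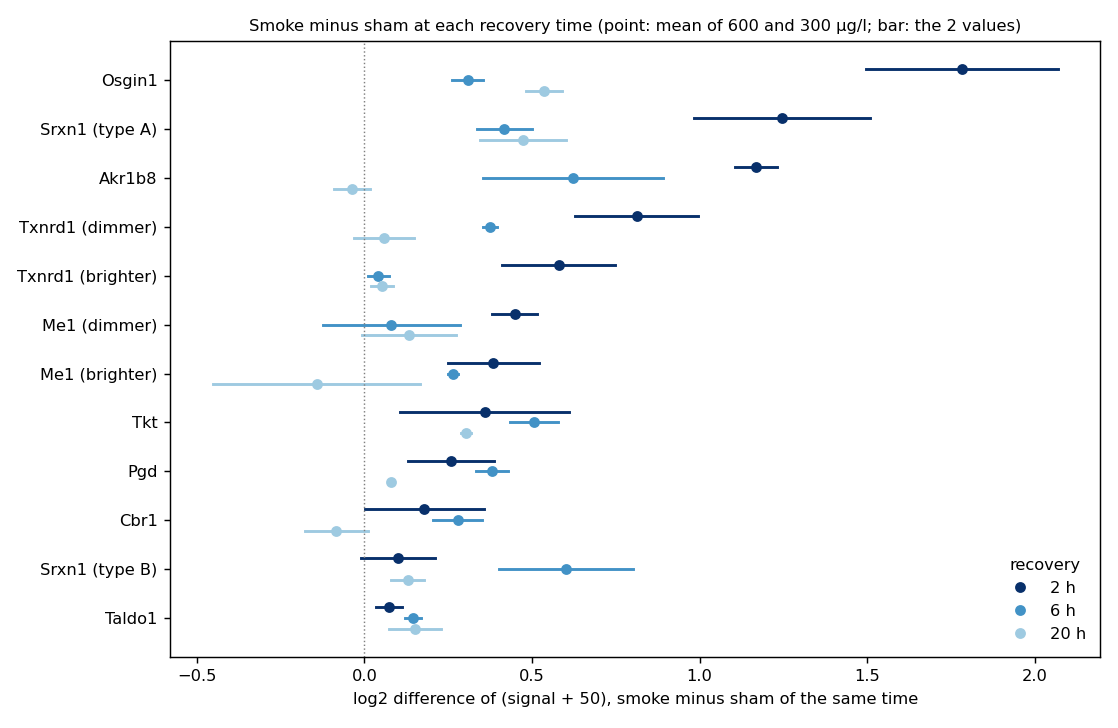
Log2 difference of signal + 50 between smoke and the sham array of the same recovery time, by probe set. Each point is the mean of 600 and 300 µg/l and each bar joins those 2 values, which are single arrays. At 2 h Osgin1 stood at 1.78, Srxn1 (type A) at 1.25 and Akr1b8 at 1.17, and at 20 h at 0.54, 0.47 and -0.04.

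Akr1b8 had mean smoke differences of 1.17 at 2 h, 0.62 at 6 h and -0.04 at 20 h. The dimmer Txnrd1 probe set stood at 0.81, 0.38 and 0.06 at the same times. With the brighter Me1, these were 3 of 12 probe sets whose positive difference at 2 h was smaller at 6 h and smaller again at 20 h, against 11% of all probe sets. Osgin1 stood at 1.78, 0.31 and 0.54, its 6 h value being that in which sham itself was high. Tkt stood at 0.36, 0.51 and 0.30, Taldo1 at 0.07, 0.15 and 0.15, and Pgd at 0.26, 0.38 and 0.08. Srxn1 on type B had its highest difference at 6 h (0.10, 0.60 and 0.13), where its 2 h value rests in part on the pair of arrays that were unusually alike.

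Whether the smoke effect differed between times was tested with both concentrations together. Going from 2 to 20 h, the effect changed by -1.25 for Osgin1 (SE 0.32, 95% interval -1.97 to -0.53), by -1.21 for Akr1b8 (SE 0.29, -1.86 to -0.55) and by -0.77 for Srxn1 on type A (SE 0.33, -1.53 to -0.01). For Txnrd1 it changed by -0.75 (dimmer, SE 0.24) and -0.53 (brighter, SE 0.21). None of these passed over all probe sets (adjusted p = 0.9996 for each by limma, with 0.0102% of all past it and 678 at an unadjusted p under 0.05). The 5 were the members with an unadjusted p under 0.05 and a smaller effect at 20 h, against 1.51% of all. Tkt (-0.06, SE 0.26), Taldo1 (0.08, SE 0.16) and Pgd (-0.18, SE 0.19) had intervals on both sides of 0, and the difference of these genes from Akr1b8 was not tested. Going from 2 to 6 h, Osgin1 changed by -1.47 (SE 0.32, adjusted p = 0.501), Srxn1 on type A by -0.83 (SE 0.33, adjusted p = 0.767) and the brighter Txnrd1 by -0.54 (SE 0.21, adjusted p = 0.758) by limma. These were the 3 members with an unadjusted p under 0.05, against 2.54% of all, and no probe set of any gene passed (0%, with 1231 at an unadjusted p under 0.05). The SEs of this model come from the distance between 300 and 600 µg/l within a time and hold no measured variation of sham arrays.

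Over all exposures, the members were also compared between times. At 20 h against 2 h, Akr1b8 stood at -0.80 (SE 0.22, adjusted p = 0.207) and Osgin1 at -0.85 (SE 0.26, adjusted p = 0.272) by limma. Txnrd1 stood at -0.53 (dimmer, SE 0.14) and -0.43 (brighter, SE 0.12), and Srxn1 at -0.59 on type A (SE 0.20) and -0.52 on type B (SE 0.16). None passed, against 0.0509% of all and 2247 at an unadjusted p under 0.05, and these 6 probe sets were the ones with an unadjusted p under 0.05 and a negative change, 6 of 12, against 5.73% of all. Sham itself was close at 2 and 20 h for Akr1b8 (391.6 and 393.8), Osgin1 (124.3 and 122.1) and the dimmer Txnrd1 (573.1 and 561.3). The same held for the brighter Txnrd1 (1459.5 and 1383.1) and Srxn1 on type A (137.7 and 128.5). Their falls were thus mainly in smoke arrays. Srxn1 on type B fell in sham too (654.2 and 433.7), but its 2 h value rests in part on the pair of arrays that were unusually alike. Without the sham array at 2 h, Osgin1 fell by 1.30 on the log2 scale and passed (adjusted p = 0.0212 by limma). In that fit only smoke arrays are left at 2 h, so the call does not show a change over all exposures. Osgin1 also reached the brightness filter through smoke arrays. The changes of Tkt (-0.10), Taldo1 (0.09), Cbr1 (-0.03) and Me1 (-0.15 and 0.00) were within their SEs or little beyond. At 6 h against 2 h, changes ran from -0.35 (Akr1b8) to 0.18 (Tkt). None passed or had an unadjusted p under 0.05 with a negative change, against 0.0153% and 5.33% of all, with 2118 at an unadjusted p under 0.05 in either direction.

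Genes that share these functions were listed by name, with earlier results of these arrays known. Of 17 other genes of NADPH supply, 12 were tested at 600 µg/l against sham, none passed by limma, and the median change was 0.002. Idh1, the cytosolic isocitrate dehydrogenase that also yields NADPH, stood at 0.33 (SE 0.08, adjusted p = 0.163), and H6pd, the dehydrogenase of the pathway in the endoplasmic reticulum, at -0.39 (SE 0.13, adjusted p = 0.300). Unadjusted p under 0.05 was found for these genes only, 1 in each direction. Nadk, which makes NADP, stood at 0.19 and the mitochondrial malic enzyme gene Me3 at -0.20.

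Of 23 other genes of carbonyl and aldehyde metabolism, 16 were tested, none passed at 600 µg/l by limma, and the median was 0.07. Aldh3a1, an aldehyde dehydrogenase induced through the aryl hydrocarbon receptor, read 1747.0, 231.8 and 63.0 at 600 µg/l, 1225.1, 269.5 and 107.3 at 300 µg/l and 68.4, 86.8 and 89.8 in sham. It was high in smoke at 2 h, lower at 6 h and at the sham level at 20 h, where it and all sham arrays lay under the brightness filter. Its change over the 3 times was 1.55 (SE 0.59, adjusted p = 0.396 by limma), and its smoke effect at 20 h minus that at 2 h was -3.74 (SE 0.37, adjusted p = 0.0413 by limma). The size of that difference is uncertain, since the levels it is set against lay under the filter. This was the 1 gene of the 5 lists to pass that test, and it lost the call under 8 of 19 alternatives (adjusted p = 0.0208 to 0.38 by limma). Akr1c14, a steroid-reducing aldo-keto reductase, stood at -0.29 (SE 0.11), the alkenal reductase gene Ptgr1 at -0.17 and Aldh9a1 at 0.15.

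The partners of thioredoxin and peroxiredoxin gave 1 gene that rose among 14 tested. Prdx5, a peroxiredoxin of mitochondria, peroxisomes and cytosol, read 3001.2, 3082.3 and 3594.6 at 600 µg/l, 3373.9, 2975.6 and 2538.1 at 300 µg/l and 2113.0, 2073.6 and 2045.4 in sham. Every smoke array lay above every sham array, and it rose by 0.62 at 600 µg/l (SE 0.11, adjusted p = 0.0426 by limma), a call kept under 18 of 29 alternatives. For both concentrations together it rose by 0.56 (adjusted p = 0.0406 by limma, kept under 19 of 28). The thioredoxin gene Txn1 stood at 0.24 (SE 0.06, adjusted p = 0.165), the thioredoxin inhibitor gene Txnip at -0.23 (SE 0.05, adjusted p = 0.125) and the sestrin gene Sesn2 at -0.33 (SE 0.11, adjusted p = 0.289) by limma. The list's median was 0.03, with 4 genes above 0 and 3 below 0 at an unadjusted p under 0.05.

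NRF2 itself, encoded by Nfe2l2, read 2312.1, 1706.1 and 1665.2 at 600 µg/l, 2152.0, 1692.3 and 1627.3 at 300 µg/l and 1396.8, 1757.6 and 1512.3 in sham. It was high in smoke at 2 h, and at 6 h both smoke arrays were below sham. Its change at 600 µg/l was 0.27 (SE 0.13, adjusted p = 0.526 by limma), and none of the 9 genes of NRF2 and its regulators passed, with a median of 0.11. The small Maf gene Maff stood at 0.41 (SE 0.15), the adaptor gene Sqstm1 at 0.19 and Nfe2l1 at -0.11. Of 8 tested other known NRF2 targets, 1 passed at 600 µg/l by limma, the heme oxygenase gene Hmox1 (adjusted p = 0.0376, kept under 18 of 29 alternatives), and the list's median was 0.38, the one list with a median above that of the 9 genes (0.30). The epoxide hydrolase gene Ephx1 stood at 0.29 (SE 0.11), Nqo1 at 1.25 (SE 0.30, adjusted p = 0.143) and Gclc at 0.43 (SE 0.14, adjusted p = 0.310) by limma.

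**Figure D4:**
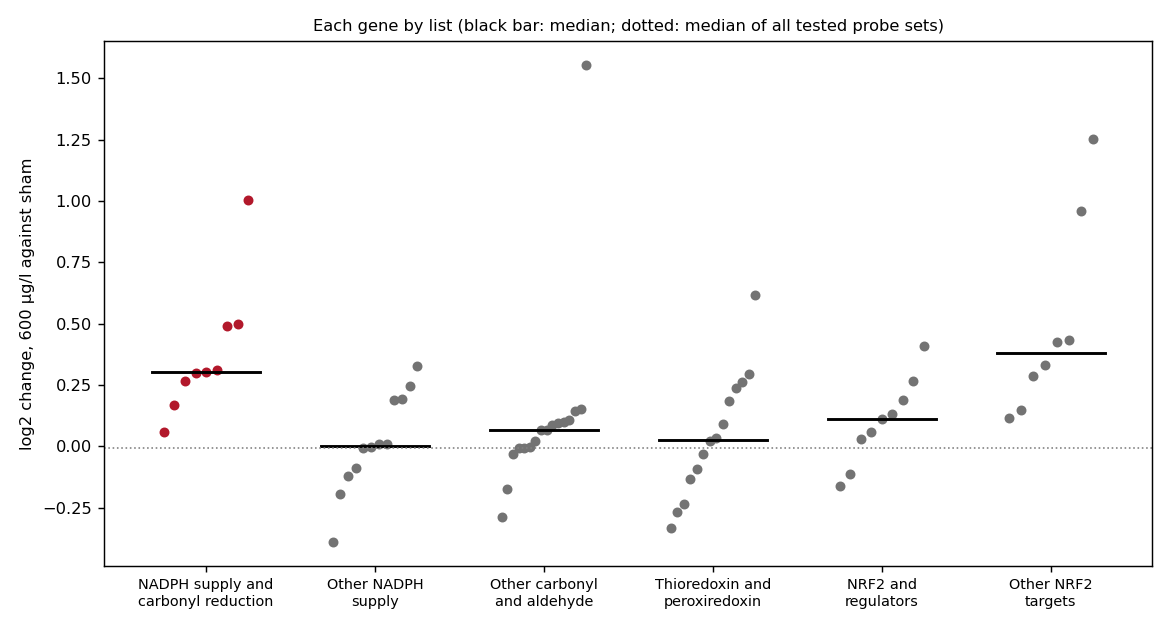
Log2 change of signal + 50 at 600 µg/l against sham, 1 point per gene (probe set of the highest mean signal), for the 9 genes and 5 lists of related genes. Black bars are medians, from 0.002 (other NADPH supply) to 0.38 (other NRF2 targets) with 0.30 for the 9 genes, and the dotted line is the median of all tested probe sets (-0.01).

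To find genes of like pattern, the type A levels of the 9 members were standardized over the 9 conditions and averaged, and 6430 other genes on type A were ranked by their correlation with this profile. The profile stood at 1.27, 0.56 and -0.17 at 600 µg/l, 0.60, 0.34 and -0.40 at 300 µg/l and -0.79, -0.75 and -0.67 in sham, at 2, 6 and 20 h, in standardized units. In this average smoke was thus above sham at every time, and nearest to it at 20 h. Single members differed, with mean smoke differences at 20 h below 0 for Akr1b8 (-0.04), Cbr1 (-0.08) and the brighter Me1 (-0.14). Osgin1 and Srxn1 (type A), which reached the brightness filter through smoke arrays, are part of the average. Nqo1, a quinone reductase, was most alike (r = 0.97 over 9 conditions), with 5959.3, 3557.3 and 1615.9 at 600 µg/l, 4750.5, 3478.5 and 1412.8 at 300 µg/l and 1233.5, 1394.3 and 1389.2 in sham. Next came Eif2b3, a subunit of a translation initiation factor, Cyp1a1, the cytochrome P450 induced through the aryl hydrocarbon receptor, Pnkd and the glutathione transferase gene Gsta3 (r = 0.95 each). Cyp1a1 read 9462.7, 2122.4 and 207.0 at 600 µg/l, 8795.0, 2789.3 and 209.3 at 300 µg/l and 154.4, 110.8 and 101.7 in sham. Hmox1 ranked 20 (r = 0.91). These correlations describe 9 arrays that hold the same exposures and times.

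Markers of other cell types are given beside these values. Of 8 alveolar macrophage markers 6 were measured, and their summed signal was 22740.2 to 25637.0 at 600 µg/l, 18480.4 to 21316.6 at 300 µg/l and 12987.8 to 13773.0 in sham. None of the 6 was at 0, and the dimmest were Fabp4 (40.3 to 125.6) and Ctsk (46.7 to 432.6). By time the sum was 22740.2, 24069.8 and 25637.0 at 600 µg/l, 21316.6, 20705.9 and 18480.4 at 300 µg/l and 13435.3, 13773.0 and 12987.8 in sham, at 2, 6 and 20 h. It was thus highest at 20 h for 600 µg/l and lowest at 20 h for 300 µg/l. Within the list, Cd68 ranked 98 (r = 0.80) and Gpnmb 245 (r = 0.72) in likeness to the members' profile. Of 5 neutrophil markers 4 were measured, summing to 3999.6 to 8369.7 at 600 µg/l, 3171.8 to 4233.5 at 300 µg/l and 1390.8 to 2310.0 in sham. Most of that sum at 600 µg/l was S100a9 (2976.4, 6636.4 and 5161.2, against 967.8, 694.7 and 1033.4 in sham), which ranked 441 (r = 0.63). S100a8, Csf3r and Cxcr2 each overlapped sham at 600 µg/l. Club and secretory airway markers (4 of 5) summed to 18948.1 to 20440.0 at 600 µg/l, 19243.3 to 21431.6 at 300 µg/l and 21124.9 to 22221.1 in sham. Adipose markers (5 of 5) summed to 464.8 to 678.0 at 600 µg/l, 529.3 to 550.1 at 300 µg/l and 530.0 to 675.9 in sham. Endothelial markers (4 of 5) summed to 12459.9 to 12752.8 at 600 µg/l, 13371.3 to 14041.8 at 300 µg/l and 13679.6 to 15431.7 in sham, and fibroblast markers (5 of 5) to 12024.8 to 13474.2 at 600 µg/l, 12101.2 to 13597.7 at 300 µg/l and 14808.0 to 15594.5 in sham. Ciliated cell markers (3 of 4) summed to 3274.2 to 3759.1 at 600 µg/l, 3607.0 to 3966.2 at 300 µg/l and 3975.9 to 4415.7 in sham, and T cell markers (5 of 5) to 995.7 to 1151.6 at 600 µg/l, 1234.6 to 1654.5 at 300 µg/l and 1259.9 to 1633.9 in sham. The endothelial, fibroblast, ciliated and T cell sums were lower at 600 µg/l than in sham without overlap, as was that of the club and secretory list. Single genes did not all follow. Among ciliated markers Tppp3 was lower (2719.0 to 3252.0 against 3596.2 to 3946.6), Foxj1 was above sham at each time and Tekt1 overlapped it. Among club and secretory markers Cyp4b1 and Cyp2f4 were lower, Muc5b was above sham at each time and Scgb1a1 overlapped it. Pecam1 of the endothelial list and Cd3e and Cd2 of the T cell list also overlapped sham. So did Col1a1, Col3a1, Pdgfra and Dcn of the fibroblast list, in which Col1a2 alone was lower without overlap.

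Liver markers (4 of 4) summed to 1630.4, 1219.8 and 750.8 at 600 µg/l, 1280.1, 1572.7 and 1149.0 at 300 µg/l and 751.1, 935.0 and 809.0 in sham, at 2, 6 and 20 h. Most of that sum was Cyp2e1, a cytochrome P450, with 1450.7, 1011.1 and 562.8 at 600 µg/l, 1030.0, 1352.6 and 917.4 at 300 µg/l and 541.9, 744.7 and 602.7 in sham. The albumin gene Alb read 46.1 to 110.7 and Apoa1 2.5 to 7.5 over all arrays. The part of any of these cell types in the members' values was not tested, and in whole lung RNA fewer cells of a type and less RNA per cell cannot be told apart.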

How the data were processed

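RNA from 18 lung samples was hybridised to 2 Affymetrix array types, with 9 arrays of each. The deposited values are intensity (linear signals), and MAS5 is the tool that the submitters' processing notes name, without a version. The trimmed mean (2% off either end) lay between 500.09 and 500.10 on each array, and this scaling by the authors was kept. Gene symbols came from GEO's platform annotation, and single symbols were updated to RefSeq's by their Entrez ID. The members and the related lists were chosen with earlier results of these data known.

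Signals were analysed as log2(signal + 50) in limma 3.58.1 under R 4.3.3, using lmFit and eBayes with a trend on intensity. Each array type had its own fit, tests were two-sided, and Benjamini-Hochberg adjustment ran over both types together (threshold 0.05). Folds on this scale understate changes of dim probe sets. Left out were 57 control probe sets per type and the type B copies of 100 probe sets that both types carry. The filter then kept 9901 (A) and 9737 (B) probe sets. An additive model of exposure and recovery time left 4 residual degrees of freedom, and a model in which the smoke effect could differ by time left 3. For a gene with several probe sets, the one of the highest mean signal is the main one, and all tested member probe sets were described. From each related list up to 4 genes were named, by the smallest p at 600 µg/l against sham, and 5 genes by likeness to the members. Hmox1, Cd68, Gpnmb and S100a9 were added to the likeness ranks.

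Alternatives were quantile or median scaling, a lower pseudocount or one of 200, the filter at the 60th percentile or absent, eBayes without the trend, adjustment per type, a model without the second factor, only the groups compared, each array left out in turn, and no 20 h conditions. Promoter windows are RefSeq's (GRCr8), and no genome was used.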

Additional observations from a re-analysis of the deposited data

Results flagged for a closer look

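The smoke effect on Aldh3a1, an aldehyde dehydrogenase gene outside the 9 members, differed between recovery times by the test of the difference itself. It was smaller at 20 h than at 2 h, with a log2 difference of -3.74 (SE 0.37, adjusted p = 0.0413 by limma, 2 of 2 concentrations in that direction). The size is uncertain, because both smoke arrays at 20 h (63.0 and 107.3) and all sham arrays (68.4, 86.8 and 89.8) lay under the brightness filter of 183.8, which the gene passed through smoke arrays at 2 and 6 h. The call was lost under 8 of 19 alternatives, with an adjusted p = 0.0208 to 0.38 by limma over all of them. Without replicate sham arrays, its error holds only the distance between 300 and 600 µg/l.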

How the results depend on the processing

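Under every alternative that was run, 0 member probe sets passed in the comparisons with sham, of 600 with 300 µg/l, of 6 with 2 h and of smoke effects between times. At 20 against 2 h, Osgin1 alone passed, without the sham array at 2 h (0 to 1 members over the arrays left out). That fit has only smoke arrays at 2 h. At 600 µg/l the changes stayed positive in 11 of the 12 probe sets. Tkt ran from 0.39 to 0.60 (adjusted p = 0.0527 to 0.325 by limma), Osgin1 from 0.55 to 1.29 and Akr1b8 from 0.21 to 0.81. Small changes turned sign when single arrays were left out. The ranges then were -0.0842 to 0.163 for Cbr1 at 600 µg/l, and -0.117 to 0.228 for the brighter Me1 and -0.0306 to 0.239 for the brighter Txnrd1 at 300 µg/l. For the smoke effect at 6 minus 2 h they were -0.078 to 0.277 for Cbr1, -0.255 to 0.0155 for the brighter Me1, -0.0052 to 0.251 for Pgd and -0.106 to 0.40 for Tkt. At 20 minus 2 h they were -0.0811 to 0.14 for Srxn1 on type B and -0.309 to 0.197 for Tkt. At 20 against 2 h they were -0.132 to 0.0701 for Cbr1, -0.304 to 0.0553 for the brighter Me1, -0.215 to 0.0156 for Tkt and -0.114 to 0.127 for the dimmer Me1, which also turned with median scaling (-0.003) and a pseudocount of 200 (-0.0018). The causes were not tested.

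Counts over all probe sets moved more. With no filter, 35 passed at 600 µg/l, 1 at 300 µg/l, 2 at 600 against 300 µg/l, 32 for both concentrations, 1 at 6 against 2 h, 0 at 20 against 2 h and 1 for the smoke effect at 20 minus 2 h. With no intensity trend these counts were 54, 2, 2, 52, 1, 1 and 1. With only the groups compared, 57 passed at 600 µg/l, 2 at 600 against 300 µg/l and 26 at 20 against 2 h. Without the 20 h conditions, 55 passed at 600 µg/l, 18 at 300 µg/l and 2 at 600 against 300 µg/l. Adjustment within each type gave 29 at 300 µg/l, 28 at 20 against 2 h and 4 for the smoke effect at 20 minus 2 h. At 20 against 2 h, median scaling gave 21, a pseudocount of 200 gave 24 and no exposure factor 22. At 6 against 2 h, median scaling gave 1 and a pseudocount of 200 gave 6. The 60th percentile gave 1 at 600 against 300 µg/l and 1 for the smoke effect at 20 minus 2 h, for which the lower pseudocount gave 1 and quantile normalization 4. With each array left out, counts were 38 to 124 at 600 µg/l, 2 to 14 at 300 µg/l, 2 to 5 at 600 against 300 µg/l, 29 to 102 for both concentrations, 1 to 9 at 6 against 2 h, 0 to 37 at 20 against 2 h, and 0 to 1 and 1 to 2 for the smoke effect at 6 and 20 minus 2 h. The smoke effects between times could not be fitted with a sham array left out.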
